A study of Mus musculus with 6 samples.

Results

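Amino acid transporters were followed in blood stem cells of the fetal mouse liver with and without Dpy30, as 10 genes taken by symbol: Slc3a2, Slc7a5, Slc7a8, Slc7a6, Slc7a11, Slc7a1, Slc1a5, Slc1a4, Slc38a1 and Slc38a2. All 10 were among the 38926 gene symbols counted and among the 13646 genes with enough counts to be tested. The cells were hematopoietic stem cells (HSCs) sorted by flow cytometry from livers at E14.5 (embryonic day). The control genotype is labelled Vav-Cre; Dpy30F/+ and the knockout genotype Vav-Cre; Dpy30F/-, with 3 samples of each, 1 pair from each of 3 litters. Both genotypes thus carry Vav-Cre, a recombinase transgene active in blood-forming cells, and 1 floxed (F) Dpy30 allele, so the controls are heterozygous wherever Cre has acted. Whether a sample holds 1 embryo or several is not given in the sources used here.

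Cells cannot make the essential amino acids and import them through carriers of the solute carrier (SLC) families. Slc3a2 encodes the heavy chain CD98hc, a glycoprotein that carries no substrate itself and takes the light chains of the Slc7 family to the cell surface. The light chains exchange leucine and other large neutral amino acids (Slc7a5, Slc7a8), cationic and neutral amino acids (Slc7a6), or cystine for glutamate (Slc7a11). Slc7a1 imports arginine and lysine without a heavy chain. Slc1a5 and Slc1a4 exchange small neutral amino acids, glutamine among them for Slc1a5, and Slc38a1 and Slc38a2 take up glutamine and alanine with sodium. Leucine, arginine and glutamine feed the growth kinase complex mTORC1, and amino acid shortage acts through the kinase GCN2 and the transcription factor ATF4, which binds several of these genes. Dpy30 belongs to the core of the SET1/MLL enzymes, whose product, methylated histone H3 lysine 4, marks active and mostly CpG-rich promoters.

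Counts assigned to genes ranged from 31897737 to 43394700 per library, and from 49.2% to 67.7% of them were mitochondrially encoded. Dpy30, the targeted gene, had 24.5, 24.1 and 31.6 CPM (counts per 1000000, scaled by TMM) in controls and 7.91, 5.94 and 13.6 CPM in knockouts, so that every knockout lay below every control. Values for single libraries are given in this order of litters throughout. Among markers of HSCs and progenitors, Kit was at 114 to 215 CPM in all libraries. Others were near or at 0 in places: Ly6a was 0 CPM in control 3, and Slamf1 was 0.513 CPM in knockout 3. Genes of liver sinusoidal endothelium, Lyve1 and Stab2 among them, were also abundant: the 6 endothelial markers summed to 1135 to 1788 CPM in controls, 1626 and 1651 CPM in knockouts 1 and 3, and 172 CPM in knockout 2. The 13 HSC and progenitor markers summed to 778 to 869 CPM in controls, 974 and 1121 CPM in knockouts 1 and 2, and 443 CPM in knockout 3. Knockouts 2 and 3 thus each stood apart from the other libraries. They also had the fewest genes with any count, 14674 and 13972, against 16149 to 17241 in the other libraries. In bulk RNA, fewer cells of a type and less RNA per cell cannot be told apart.

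The comparison of knockout with control asks which transporter transcripts differ with Dpy30. In the quasi-likelihood test of edgeR, 0 of the 10 transporters and 0 of 13646 genes (0% called) had an adjusted p under 0.05. At an unadjusted p under 0.05 stood 888 of all genes (6.51%; 4.26% higher and 2.24% lower in the knockout) and 2 transporters, Slc7a8 (higher) and Slc7a1 (lower). DESeq2 called 275 of 14053 genes (1.96%, with 1.17% called higher) and 1 transporter, Slc7a8, higher. Restricted to the genes edgeR tested it called 1.03% (0.777% higher), and with litter as a block 2.98% (1.53% higher), again with Slc7a8 as the 1 transporter. The 3 knockout values all lay above the 3 control values for Slc7a8 and Slc7a11 (6.39% of all tested genes), and all below for Slc7a1 and Slc1a4 (7.74%). For the other 6 the genotypes overlapped. The median log2 fold change of the 10 was -0.04, beside 0.01 over all tested genes, with 5 above and 5 below 0 (50.8% of all genes were above).

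**Figure D1:**
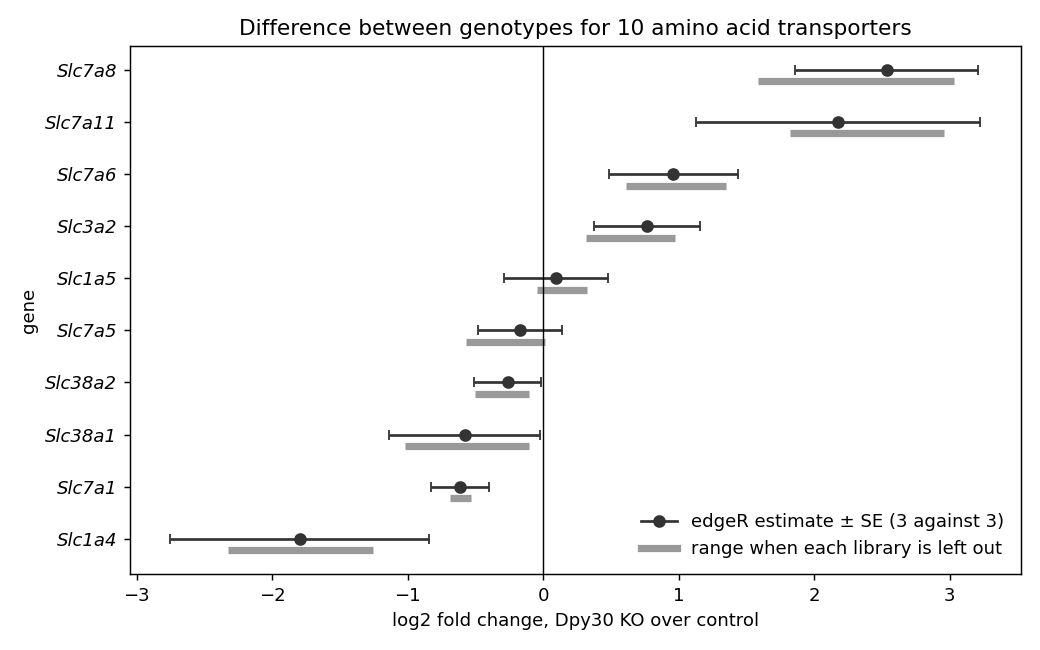
Log2 fold change of each transporter, Dpy30 knockout over control, from edgeR (points, with SE, 3 against 3 libraries), with the range when each library is left out in turn (grey bars). Slc7a8 (2.54) and Slc7a11 (2.18) lie farthest to the right and Slc1a4 (-1.80) farthest to the left, and the grey bars of Slc1a5 and Slc7a5 cross 0.

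Slc3a2 (GRCm38 chromosome 19, 8706882 to 8723369, minus strand) encodes the shared heavy chain. Its transcript stood at 42.9, 29.1 and 49.9 CPM in controls and at 47.2, 53.0 and 107 CPM in knockouts. Knockout 3 was well above every other library, while knockout 1 lay inside the control range. Within litters the knockout was higher by 0.14, 0.86 and 1.10 on the log2 CPM scale. The means were 40.6 ± 10.6 and 69.1 ± 33.1 CPM (n = 3 each, SD; exact permutation p = 0.2, two-sided), and the log2 fold change was 0.77 (edgeR SE 0.39, adjusted p = 0.795). Without knockout 3 it was 0.31, so the size of the difference rested largely on that library.

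Slc7a8 (GRCm38 chromosome 14, 54722209 to 54781946, minus strand) encodes LAT2, a light chain that exchanges large and small neutral amino acids. Its raw counts were 581, 234 and 517 in the controls against 1670, 1204 and 5092 in the knockouts, or 20.03, 6.25 and 11.7 CPM against 42.0, 33.1 and 145 CPM. The lowest knockout was above the highest control, and knockout 3 was above both other knockouts. Within litters the log2 difference was 1.06, 2.40 and 3.63. The means were 12.7 ± 6.94 and 73.4 ± 62.3 CPM (SD, n = 3 each), a ratio of 5.80, with an exact permutation p of 0.1, the smallest that 3 against 3 can give. The log2 fold change was 2.54 (edgeR SE 0.68, adjusted p = 0.629), and DESeq2 gave 2.56 (SE 0.69; adjusted p = 0.0194). The DESeq2 call was lost without control 2 (adjusted p = 0.130), without control 3 (adjusted p = 0.113) and without knockout 3 (log2 fold change 1.59, adjusted p = 0.0989).

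The stretch before the start of Slc7a8, the transporter with the smallest p, is shown with its CpG sites in capitals, since the complexes that hold Dpy30 act mostly at CpG-rich promoters. It runs over chr14:54781947-54782136 on the minus strand (RefSeq, GRCm38.p6):

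Slc7a8: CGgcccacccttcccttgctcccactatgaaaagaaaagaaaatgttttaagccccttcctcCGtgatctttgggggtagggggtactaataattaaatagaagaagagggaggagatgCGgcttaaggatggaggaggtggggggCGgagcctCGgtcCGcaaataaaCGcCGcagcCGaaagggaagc

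The macrophage markers summed to 300.2, 600.1 and 399 CPM in controls and to 836, 343 and 1579 CPM in knockouts, so that knockouts 1 and 3 were above every control and knockout 2 lay inside the control range. Of 13 tested macrophage markers 11 had a positive log2 fold change (50.8% of all tested genes had). In 5 every knockout was above every control (6.39% of all tested genes). Mrc1 and Vcam1, which sinusoidal endothelium also expresses, made up much of the summed list and were at 26.4 and 2.31 CPM in knockout 2. They were also the tested markers without a positive log2 fold change. Without them, a list chosen after the values were seen, the other 12 markers summed to 98.5, 192 and 177 CPM in controls and to 476, 314 and 1176 CPM in knockouts, with none at 0 in all libraries. Csf1r, the receptor of the macrophage growth factor, was 8.90 to 39.1 CPM in controls and 75.6 to 141 CPM in knockouts. Neutrophil and granule genes summed to 58.3 to 123 CPM in controls and to 69.5, 148 and 393 CPM in knockouts. The part of such cells in the Slc7a8 and Slc3a2 differences was not tested.

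Slc7a5 (GRCm38 chromosome 8, 121881150 to 121907694, minus strand) encodes LAT1, the leucine carrier that feeds mTORC1 in proliferating cells. Its levels were 104, 121 and 103 CPM in controls and 74.2, 145 and 72.9 CPM in knockouts. Knockouts 1 and 3 were below every control and knockout 2 above every control. The log2 fold change was -0.17 (edgeR SE 0.31, adjusted p = 0.962), and its sign turned without knockout 3. Within litters the log2 difference was -0.48, 0.25 and -0.49 for Slc7a5, so that it was opposite in sign to that of Slc7a8 in litters 1 and 3 and the same in litter 2.

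Slc7a11 (GRCm38 chromosome 3, 49892526 to 50443614, minus strand) encodes xCT, the light chain that imports cystine for glutathione synthesis and is among the best known ATF4 targets. The stretch before its start, shown for its 2 matches to the composite ATF4 motif (TGATGNAA on either strand, in capitals), runs over chr3:50443615-50443863 on the minus strand (RefSeq, GRCm38.p6):

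Slc7a11: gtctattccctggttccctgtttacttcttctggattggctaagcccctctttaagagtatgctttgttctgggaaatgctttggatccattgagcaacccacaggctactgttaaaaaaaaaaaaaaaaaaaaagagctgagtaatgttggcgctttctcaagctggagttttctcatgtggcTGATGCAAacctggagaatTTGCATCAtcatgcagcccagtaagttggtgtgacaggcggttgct

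RefSeq starts were found for 7 of the 10 transporters, 9 entries in all, and Slc7a11 was the 1 entry with this motif in the 250 bases before the start. Over all 32851 entries 3.45% held it. The sequence TGACNNNGC, a form of the antioxidant response element bound by NRF2, was in 3 of the 9 entries (Slc7a6, Slc7a1 and Slc38a2) and in 10.2% of all. The MYC E-box CACGTG was in 0 of the 9 and in 6.02% of all. A match describes these letters only.

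Slc7a11 had the lowest mean level per kb of exon of the 10 in both genotypes, with 19, 63 and 18 counts in controls and 118, 199 and 140 counts in knockouts. These counts equal 0.655, 1.68 and 0.408 CPM in controls and 2.96, 5.48 and 3.99 CPM in knockouts. The genotypes did not overlap, and the knockout was higher in each litter. The means were 0.915 ± 0.676 and 4.14 ± 1.26 CPM (n = 3 each, SD; exact permutation p = 0.1), and the log2 fold change was 2.18 (edgeR SE 1.05, adjusted p = 0.778; DESeq2 adjusted p = 0.162). Slc7a6 (GRCm38 chromosome 8, 106168857 to 106198706, plus strand), the light chain y+LAT2, had 9.86, 19.2 and 10.2 CPM in controls and 19.0, 36.5 and 21.2 CPM in knockouts. Control 2 and knockout 1 overlapped, but within litters the log2 difference was nearly the same each time, at 0.94, 0.92 and 1.04. With single libraries left out Slc7a11 stayed between 1.82 and 2.96 on the log2 scale. The log2 fold change of Slc7a6 was 0.96 (edgeR SE 0.47, adjusted p = 0.793). Together with Slc3a2 and Slc7a8, they were the 4 transporters higher in the knockout in 3 of 3 litters, which 12.3% of all tested genes were.

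**Figure D2:**
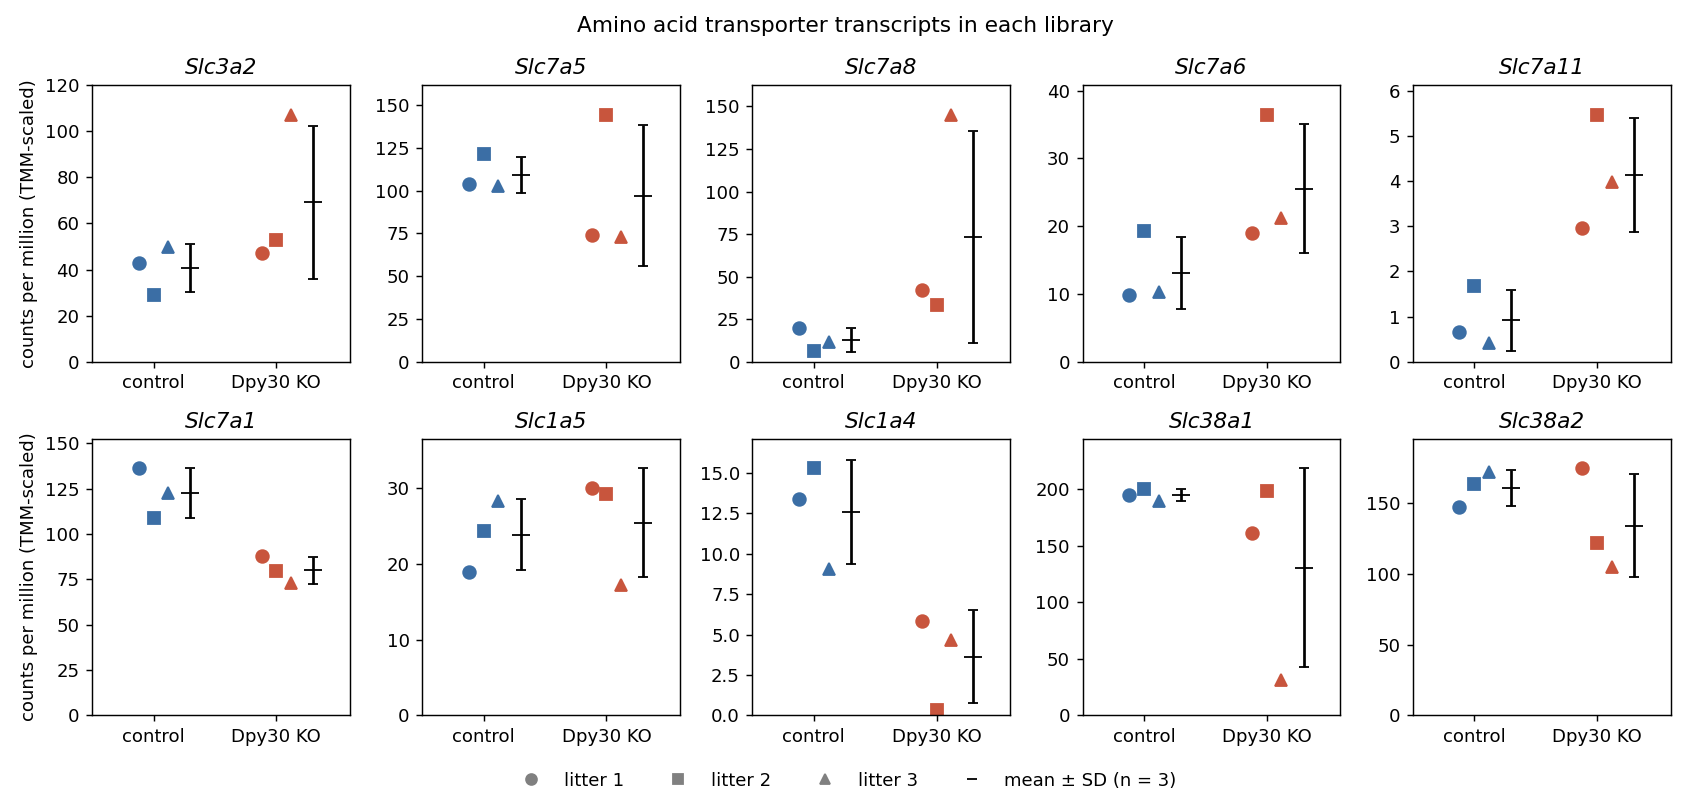
TMM-scaled CPM of each transporter in the 6 libraries (vertical axes from 0, 1 panel per gene, marker shapes for litters, bars for mean ± SD, n = 3). The knockouts lie above the controls for Slc7a8 and Slc7a11 and below them for Slc7a1 and Slc1a4, and knockout 3 is far from the other knockouts for Slc3a2, Slc7a8 and Slc38a1.

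The balance of light to heavy chain was compared within each library, as the ratio of counts per kilobase (kb) of exon, which does not depend on how libraries are scaled. Slc7a8 was 0.382, 0.176 and 0.192 of the Slc3a2 level in controls and 0.728, 0.512 and 1.11 of it in knockouts. The genotypes did not overlap, and the mean log2 ratio differed by 1.67 (-2.09 ± 0.61 against -0.43 ± 0.56; n = 3 each, SD; exact permutation p = 0.1, 0.4 after Benjamini-Hochberg adjustment over 4 light chains). Slc7a5 was 2.30, 3.96 and 1.95 times the Slc3a2 level in controls, and 1.495, 2.59 and 0.646 times it in knockouts (mean log2 difference -0.94; exact permutation p = 0.3, 0.4 after adjustment), and the genotypes overlapped. Slc7a5 exceeded Slc3a2 in every library but knockout 3. Slc7a6 to Slc3a2 differed by 0.27 (exact permutation p = 0.8) and Slc7a11 to Slc3a2 by 1.69 (exact permutation p = 0.2). Between the paralogs LAT1 and LAT2, Slc7a5 was 6.01, 22.5 and 10.2 times the Slc7a8 level in controls, and 2.05, 5.07 and 0.583 times it in knockouts. Every knockout ratio was below every control ratio (log2 difference -2.61; exact permutation p = 0.1, 0.15 after adjustment over 3 pairs).

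**Figure D3:**
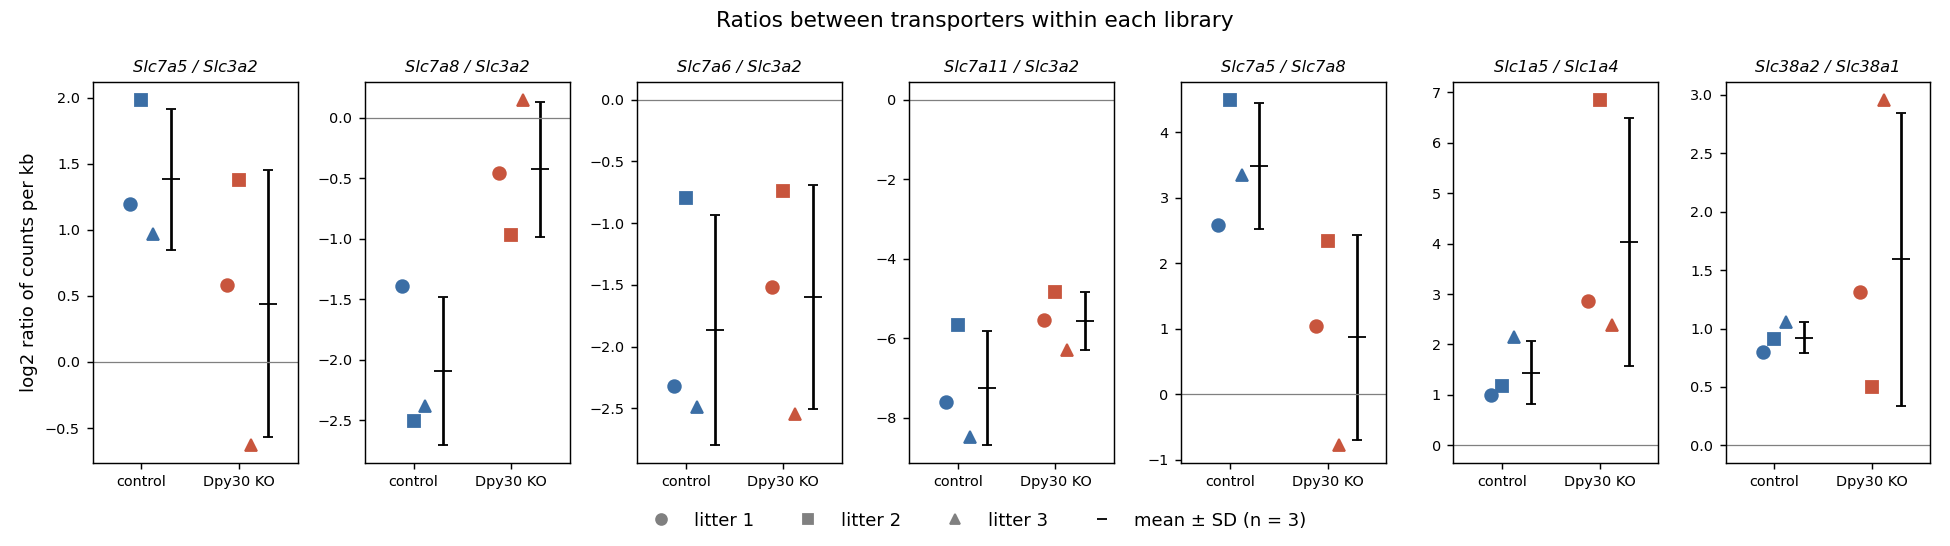
Log2 ratio of counts per kb between transporters in each library (marker shapes for litters, bars for mean ± SD, n = 3; the grey line marks equal levels). The genotypes do not overlap for Slc7a8 to Slc3a2, Slc7a5 to Slc7a8 and Slc1a5 to Slc1a4, and they overlap for the other 4 ratios.

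Slc7a1 (GRCm38 chromosome 5, 148327410 to 148399904, minus strand) encodes CAT1, the main importer of arginine and lysine. It had 136, 109 and 123 CPM in controls and 87.8, 79.5 and 72.9 CPM in knockouts, so the highest knockout was below the lowest control. The spread among the knockouts was small (122.6 ± 13.6 against 80.1 ± 7.43 CPM; n = 3 each, SD; exact permutation p = 0.1), and the knockouts held 65.3% of the control level. Within litters the log2 difference was -0.63, -0.45 and -0.75. The log2 fold change was -0.61 (edgeR SE 0.21, adjusted p = 0.727; DESeq2 adjusted p = 0.185). Among the transporters it moved least when single libraries were left out, from -0.69 to -0.53. Slc7a1, Slc1a4 and Slc38a1 were the 3 transporters lower in the knockout in 3 of 3 litters, which 16.1% of all tested genes were.

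Slc1a4 (GRCm38 chromosome 11, 20302180 to 20332713, minus strand) encodes ASCT1, an exchanger of alanine, serine and cysteine. Its levels were 13.4, 15.3 and 9.04 CPM in controls and 5.83, 0.358 and 4.68 CPM in knockouts. Knockout 2 rested on 13 counts. Every knockout was below every control, at 12.6 ± 3.21 against 3.62 ± 2.88 CPM (n = 3 each, SD; exact permutation p = 0.1), with a log2 fold change of -1.80 (edgeR SE 0.96, adjusted p = 0.797; DESeq2 adjusted p = 0.411). Without knockout 2 the log2 fold change was -1.26. Knockout 2 was also the library with the lowest endothelial markers (172 CPM, against 1135 to 1788 CPM in controls). Knockouts 1 and 3, at 1626 and 1651 CPM, lay inside the control range of these markers, yet their Slc1a4 was below every control. The part of such cells in the Slc1a4 difference was not tested. Slc1a5 (GRCm38 chromosome 7, 16781340 to 16798274, plus strand) encodes ASCT2, which carries glutamine. It had 18.9, 24.4 and 28.2 CPM in controls and 29.97, 29.1 and 17.1 CPM in knockouts, with knockouts at both ends of the range. Its log2 fold change was 0.09 (edgeR SE 0.38, adjusted p = 0.984), and the sign turned under upper-quartile scaling and without control 1, knockout 1 or knockout 2. Within libraries Slc1a5 was 2.00, 2.26 and 4.44 times the Slc1a4 level per kb in controls and 7.30, 116 and 5.21 times in knockouts (exact permutation p = 0.1, 0.15 after adjustment over 3 pairs).

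The stretch before the start of Slc1a4, the transporter with the lowest log2 fold change, is shown with its CpG sites in capitals. It runs over chr11:20332714-20332963 on the minus strand (RefSeq, GRCm38.p6):

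Slc1a4: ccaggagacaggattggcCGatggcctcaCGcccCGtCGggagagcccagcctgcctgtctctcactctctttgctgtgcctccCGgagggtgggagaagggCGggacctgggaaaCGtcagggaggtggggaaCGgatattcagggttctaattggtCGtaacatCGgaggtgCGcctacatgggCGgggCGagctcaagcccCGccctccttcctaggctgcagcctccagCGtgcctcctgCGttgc

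The Slc7a8 stretch holds 9 CpG sites in 190 bases and that of Slc1a4 holds 16 in 250 bases, while the stretch before Slc7a11 holds 2. Over the 9 transporter entries the 250 bases held 2 to 38 CpG sites, and the median over all entries was 6. A relation of CpG sites to the differences between genotypes was not tested.

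Slc38a1 (GRCm38 chromosome 15, 96571418 to 96642913, minus strand) and Slc38a2 (chromosome 15, 96687392 to 96699730, minus strand) are neighbouring genes for the glutamine carriers SNAT1 and SNAT2. Slc38a1 was steady in controls, at 195.0, 200.4 and 189.7 CPM, and stood at 162, 198.8 and 31.1 CPM in knockouts. Knockouts 1 and 3 were below every control, knockout 3 by far the more. Knockout 3 was the library with the lowest sum of HSC and progenitor markers. Hlf, a transcription factor of HSCs, was 27.2 CPM there against 157 to 177 CPM in controls. Not all markers of the list were low in knockout 3. Mllt3 was 161 CPM there against 104 to 155 CPM in controls, and Gata2 was 45.2 CPM against 30.1 to 31.9 CPM. The part of the HSC content was not tested. The log2 fold change was -0.58 (edgeR SE 0.56, adjusted p = 0.901), and it was -0.10 without knockout 3. Slc38a2 had 147, 163 and 172 CPM in controls and 174, 122 and 105 CPM in knockouts (log2 fold change -0.26; edgeR SE 0.25, adjusted p = 0.901). The genotypes overlapped, with knockout 1 the highest of all libraries. The ratio of Slc38a2 to Slc38a1 per kb was 1.73 to 2.08 in controls and 2.49, 1.41 and 7.77 in knockouts (exact permutation p = 0.6).

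**Figure D4:**
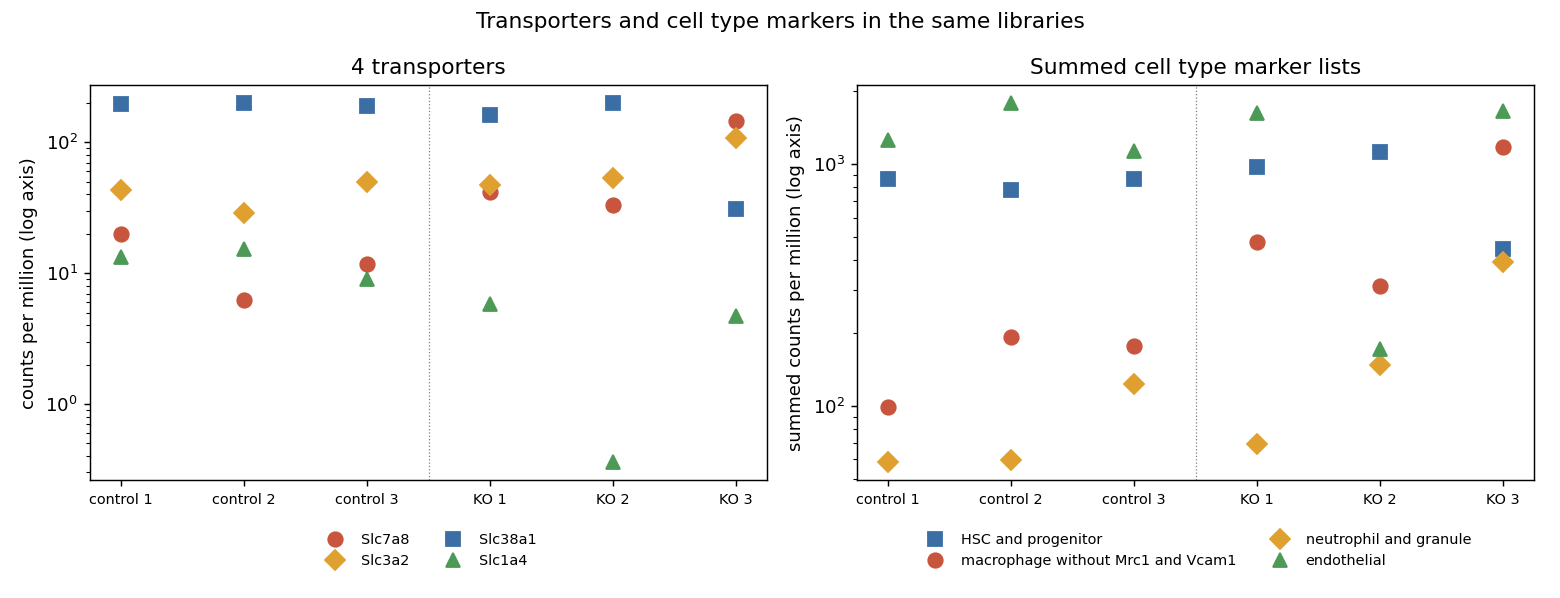
CPM (log axes) of 4 transporters (left) and of summed marker lists (right) in the same 6 libraries. Mrc1 and Vcam1 were left out of the macrophage list after the values were seen. Knockout 3 is high in Slc7a8, Slc3a2 and in macrophage (without Mrc1 and Vcam1) and granule markers and low in Slc38a1 and HSC markers, and knockout 2 is low in Slc1a4 and endothelial markers.

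Levels were compared between genes as CPM per kb of exon. In controls the order began with Slc38a2 at 34.4 ± 2.70 and Slc7a5 at 31.05 ± 2.98 CPM per kb, whose ranges overlapped. A gap separated them from Slc38a1 (18.2 ± 0.5005), Slc7a1 (16.3 ± 1.81), Slc3a2 (12.2 ± 3.17) and Slc1a5 (8.62 ± 1.70), in which each gene overlapped the next. After a second gap came Slc7a6 (3.41 ± 1.38), Slc1a4 (3.21 ± 0.819) and Slc7a8 (3.10 ± 1.70), which overlapped, and last Slc7a11 (0.0929 ± 0.0686; SD, n = 3 for each). In knockouts Slc38a2 (28.7 ± 7.77) and Slc7a5 (27.6 ± 11.7) were again the highest, followed by Slc3a2 at 20.7 ± 9.91 and Slc7a8 at 18.0 ± 15.3 CPM per kb (SD, n = 3 each). Neighbours in the knockout order overlapped except Slc7a6 and Slc1a4. The 10 transcripts together came to 128, 131 and 133 CPM per kb in controls and to 127, 141 and 137 CPM per kb in knockouts, a narrow range beside that of single genes. Summed without exon length they came to 688, 690 and 696 CPM in controls and to 645, 702 and 581 CPM in knockouts. On that scale knockouts 1 and 3 were below every control. The make-up of the sum per kb differed: Slc7a8 made up 3.84%, 1.17% and 2.16% of it in controls and 8.08%, 5.75% and 26.0% in knockouts. Slc7a1 made up 14.2%, 11.1% and 12.2% in controls and 9.17%, 7.49% and 7.08% in knockouts.

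**Figure D5:**
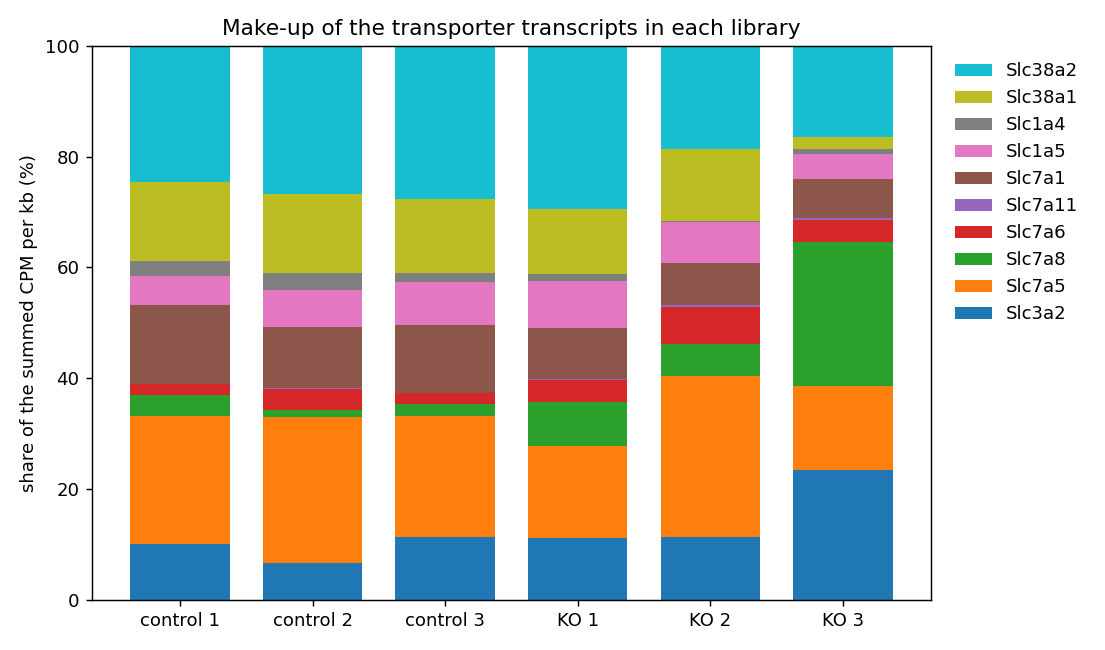
Share of each transporter in the summed CPM per kb of the 10 (%), 1 bar per library. Slc38a2 and Slc7a5 are the 2 largest shares in each control, and Slc7a8 takes 5.75% to 26.0% in knockouts against 1.17% to 3.84% in controls.

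Of 45 further carrier genes in the files 21 were tested, 14 with a log2 fold change above 0 (50.8% of all tested genes) and 7 below. The median was 0.23, beside 0.01 over all genes. With litter as a block in edgeR it was -0.015, beside -0.12 over all genes. In edgeR and in DESeq2 0 passed the threshold. At an unadjusted p under 0.05 in edgeR stood 1, Slc36a1, which was higher (4.26% of all tested genes) and exports amino acids from lysosomes. Slc36a1 had 10.9, 8.12 and 8.33 CPM in controls and 22.8, 14.4 and 31.5 CPM in knockouts (log2 fold change 1.33, edgeR SE 0.47, adjusted p = 0.729). It was named because its genotypes did not overlap (6.39% of all tested genes, with the knockouts above). Slc38a4, a carrier of neutral amino acids, was lower in every knockout than in every control (7.74% of all tested genes). It had 5.28, 7.40 and 5.10 CPM in controls and 3.72, 0.0275 and 0.314 CPM in knockouts (edgeR adjusted p = 0.863). The value in knockout 2 rested on 1 count, and that in knockout 3 was also near the floor, where 1 count is worth 0.0285 CPM. Among the 24 untested carriers the highest count in any library was 119, for Slc1a2.

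Among genes that sense or spend the imported amino acids 0 passed the threshold in edgeR. Of 36 tested mTORC1 sensing genes 16 had a log2 fold change above 0 (50.8% of all tested genes) and 20 below (median -0.05). In each direction 1 had an unadjusted p under 0.05 in edgeR (4.26% of all tested genes higher and 2.24% lower). DESeq2 called 1 of the 36, Sesn2 (1.96% of all genes were called by DESeq2, 1.17% called higher). Sesn2 encodes a leucine sensor that restrains mTORC1. It had 0.793, 6.78 and 3.76 CPM in controls and 6.78, 32.6 and 57.3 CPM in knockouts (log2 fold change 3.09; edgeR SE 0.97, adjusted p = 0.686; DESeq2 adjusted p = 0.0392). Knockout 1 and control 2 had the same Sesn2 level to 3 digits. Sec13, part of the GATOR2 complex that relieves this restraint, was 21.2, 22.6 and 23.3 CPM in controls and 8.21, 11.5 and 12.9 CPM in knockouts (log2 fold change -1.04; edgeR adjusted p = 0.751). Tsc2, an mTORC1 inhibitor, differed by 0.33 (edgeR adjusted p = 0.890).

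Of 31 tested genes of the ATF4 amino acid response, 12 had a log2 fold change above 0 (50.8% of all tested genes) and 19 below (median -0.25). At an unadjusted p under 0.05 in edgeR stood 2, both higher (4.26% of all tested genes). In 2 every knockout was above every control (6.39% of all tested genes), and in 5 every knockout was below (7.74%). The knockouts were lower for Mthfd2, a mitochondrial folate enzyme, at 25.4, 23.5 and 25.0 CPM in controls and 13.8, 18.1 and 8.53 CPM in knockouts (edgeR adjusted p = 0.786). Nars, an aminoacyl-tRNA synthetase, had a log2 fold change of -0.42 (edgeR adjusted p = 0.775) and Wars, another, of 0.96 (edgeR adjusted p = 0.758). Of 12 tested glutathione genes 6 stood above and 6 below 0 (median 0.11). At an unadjusted p under 0.05 in edgeR were 2, both higher (4.26% of all tested genes). Gstm1, a glutathione transferase, was 11.3, 8.92 and 8.18 CPM in controls and 11.6, 27.8 and 35.6 CPM in knockouts (log2 fold change 1.40; edgeR adjusted p = 0.729), while Gsta4, another, had a log2 fold change of -1.74 (edgeR adjusted p = 0.775).

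Of 15 tested genes that use glutamine, arginine or branched-chain amino acids, 5 were above and 10 below 0 (median -0.50, beside 0.01 over all genes). In 3 of them every knockout was below every control (7.74% of all tested genes). At an unadjusted p under 0.05 in edgeR were 2, both lower (2.24% of all tested genes). Got1, the cytosolic aspartate transaminase, was 24.4, 21.1 and 27.4 CPM in controls and 9.62, 12.1 and 5.22 CPM in knockouts (log2 fold change -1.44; edgeR SE 0.47, adjusted p = 0.709). Glul, glutamine synthetase, was 88.1, 100.1 and 96.8 CPM in controls and 73.8, 66.6 and 61.3 CPM in knockouts (log2 fold change -0.50; edgeR SE 0.22, adjusted p = 0.766). Of 9 transcription factors known to act on carrier genes or on amino acid supply 7 were above 0 (50.8% of all tested genes), with a median of 0.26. Bach1, a repressor of antioxidant genes, was the 1 whose genotypes did not overlap, with the knockouts above (6.39% of all tested genes). Its levels were 17.2, 45.1 and 39.1 CPM in controls and 50.1, 52.1 and 45.6 CPM in knockouts (edgeR adjusted p = 0.866).

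The genes whose log2 CPM followed Slc3a2 most closely over the 6 libraries were Nck2, Ralgps1, Ms4a3, Mgam and Glis3 (Pearson r of 0.98 to 0.99). All 5 had their highest level in knockout 3, at 32.2, 427, 26.0, 39.0 and 19.6 CPM in this order. Slc3a2 itself was highest there, so picking genes by correlation with it makes this likely. Those closest to Slc7a8 were Crtc1, Reln, Wars, Spg21 and Mrpl37 (r of 0.98 to 0.99). Among 9616 genes compared, 1.82% had r above 0.9 with Slc3a2 and 1.62% with Slc7a8; the points share their libraries and scaling.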

How the data were processed

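Per the labels' protocols, total RNA went through 2 poly(A) selections before library construction. For each library the authors deposited raw counts by gene symbol. The submitters' processing notes name CASAVA 1.8.4, TopHat2, Picard 1.126, HTSeq 0.6.0, DESeq 3.0, bedtools 2.17.0 and the build mm10, with no roles; the annotation and strand setting are not given in the sources used here. The 5 closing tallies of reads given to no gene held 41.0% to 51.0% of all reads and stayed out. Without molecular tags, precision covers counting error only; the 10 transporters had 13 to 8375 counts per library. Genotypes were compared with edgeR 4.0.16 (filterByExpr, TMM scaling, glmQLFTest, Benjamini-Hochberg over 13646 genes, threshold 0.05) without a litter term, and by exact two-sided permutation of single values (scipy 1.17.1). Each SE was obtained as the fold change (log2) divided by the root of its F statistic. Log2 CPM has a prior count of 2. DESeq2 1.42.0, limma-voom (limma 3.58.1), a litter block, scalings, filters and left-out libraries were alternatives. Nothing says whether libraries come from single embryos, so p-values measure the spread between these samples.

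Exon lengths (union of protein-coding transcripts) and positions are from GENCODE M21 (GRCm38, the mm10 assembly); no exon of the 10 overlaps another gene. Promoter sequences are from RefSeq (GRCm38.p6). The code was tested on simulated data, with pass limits set only for counts that varied less than these. No limit was set at the spread of these data, where the common biological coefficient of variation was 0.82. That test therefore does not say how many true differences edgeR could detect here. The members and lists were chosen with earlier results of these data known. From each list were named up to 3 genes of smallest p, reaching 5 CPM on average in one of the genotypes and not overlapping between genotypes, as values; Dpy30 and, by Pearson r over the 6 libraries, the 5 genes averaging at least 5 CPM that were most alike to Slc3a2 and to Slc7a8 were named too. Litter numbers in the labels mark shared litters and so pair the samples; deviations from the genotype mean correlated at -0.02, -0.08 and 0.0034 within litters 1 to 3. Markers of 9 cell types served as checks; hepatocyte markers summed to 5.24 to 23.4 CPM in controls and 3.55 to 5.05 in knockouts, erythroid to 1212 to 2263 and 938 to 2760, megakaryocyte to 73.0 to 107 and 102 to 165, mast cell to 0.0690 to 5.47 and 6.41 to 17.9, and lymphoid to 0.103 to 2.83 and 1.97 to 7.02, with Tpsb2, Cma1, Fcer1a, Cd3e, Cd3g and Pax5 at 0 in all libraries.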

Additional observations from a re-analysis of the deposited data

How the results depend on the processing

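Over the refits by edgeR or limma-voom, which gave 140 values for the 10 transporters together, 0 values passed the threshold (smallest adjusted p 0.326) and 135 kept the sign. Those that did not were of Slc1a5, at -0.011 under upper-quartile scaling and from -0.048 to 0.32 with single libraries left out, and of Slc7a5, from -0.57 to 0.013 with single libraries left out; the cause was not tested. In the DESeq2 fits with a library left out, added after the data were seen, Slc1a5 turned to -0.025 without control 1 and -0.017 without knockout 1, and Slc7a5 to 0.017 without knockout 1 and 0.024 without knockout 3. Slc7a8 was 3.06 without control 1, 2.85 without knockout 1, 2.91 without knockout 2 and as low as 1.59 without knockout 3, with 0 to 1 transporters called. The genes called were 239, 267 and 260 without controls 1 to 3, and 1023, 604 and 418 without knockouts 1 to 3. With litter as a block (the paired fit) Slc7a8 had a log2 fold change of 2.37 (edgeR adjusted p = 0.953), and the block changed no call in edgeR. DESeq2 called 275 genes and 1 transporter, Slc7a8 at 2.56. Added after the data were seen, DESeq2 on the genes edgeR tested called 138 genes and 1 transporter (Slc7a8 at 2.56, adjusted p = 0.00915), and DESeq2 with the litter block 395 genes and 1 transporter (Slc7a8 at 2.39, adjusted p = 0.00261). The count of all genes past the threshold became 1 when low counts were not filtered and 1 with at least 10 counts in every sample, and was 0 to 0 with single libraries left out.

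Median log2 fold changes of lists moved by more than the spread between replicates for mTORC1 sensing (-0.22 by limma-voom, -0.20 under upper-quartile scaling, 0.15 by library size only, and -0.13 to 0.12 with single libraries left out), for transcription factors of carrier genes (0.48 by library size only, 0.065 to 0.44 with single libraries left out), for glutathione genes (0.53 with at least 10 counts in every sample, -0.14 to 0.33 with single libraries left out) and for other carriers (-0.051 to 0.15 with single libraries left out). Scaling by library size only moved the median of all genes from 0.01 to 0.23, and upper-quartile scaling moved it to -0.10. The ratio of Slc7a6 to Slc3a2 ranged from -0.16 to 0.81 and that of Slc38a2 to Slc38a1 from -0.014 to 1.22 with single libraries left out, and the other ratios kept their sign. Among the 10 transporters, depth limits most the values of Slc7a11 in controls (18 to 63 counts) and of Slc1a4 in knockout 2 (13 counts).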
